A study of Mus musculus with 6 samples.

Results

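The genes of the insulin-like growth factor (IGF) axis were compared, as a set of 10, between untreated and cardiac-induced mouse cardiosphere-derived cells. They were chosen by name, as the ligand Igf1, its receptor Igf1r, the binding protein genes Igfbp2, Igfbp3, Igfbp4, Igfbp5, Igfbp6 and Igfbp7, the protease gene Pappa and its inhibitor Stc2, and make up 10 of the 54532 genes in the count table. All 10 passed the filter on low counts. The cells were 1 line, grown out of explants of C57BL/6 mice that the labels call heart ventricle. The study describes these explants as epicardium taken from the ventricle of adult mice. The line was immortalized with a lentivirus carrying human telomerase (hTERT) under puromycin selection, so both groups share the transgene and the selection. Total RNA was extracted and sequenced at passage 30 from 3 control libraries (untreated iCDC) and 3 induced libraries (iCDC treated with 10 µM 5-azacytidine, an inhibitor of DNA methylation, for 3 days). Per the labels the induced cells then stayed for 4 weeks in IMDM with 2% fetal bovine serum, whereas the study's methods give a shorter culture in another medium. The methods give the routine medium of these cells as IMDM with a higher serum level. How long the control cells were cultured is not given in the sources used here. The drug, the medium with its serum level and the time in culture thus cannot be told apart. The labels speak of separate samples and the study's methods of biological replicates, but neither says whether these were separate cultures, and the p-values measure the spread between these libraries.

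The IGF axis carries growth and survival signals. Igf1 is a secreted ligand that activates the receptor tyrosine kinase encoded by Igf1r, which signals through the PI3K-AKT and MAPK pathways, and in the heart it is known for effects on cardiomyocyte growth and survival. In tissue most of the ligand is held by binding proteins, which can block it, store it or present it to the receptor. Pregnancy-associated plasma protein A, the product of Pappa, cuts several of these binding proteins and so frees the ligand, and stanniocalcin-2, the product of Stc2, inhibits that protease.

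Each library held 19041133 to 19823369 counted reads, and 14246 genes were tested. A count of 0 allowed a level of up to 0.151 to 0.158 CPM (counted reads per 1e+06 reads of the library) by counting error alone. The counts of marker genes higher or lower use an edgeR adjusted p under 0.05, at which 32.6% of all tested genes were higher and 32.2% lower. Fibroblast markers summed to 18610 to 19657 CPM in the control libraries and 22650 to 23915 CPM in the induced ones. Most of this was Col1a1, Col1a2 and Col3a1, and 5 of 7 genes rose while Col1a1 and Pdgfra fell. Cardiosphere cell surface markers summed to 642 to 656 CPM and 835 to 846 CPM, with 3 of 5 genes higher, while Cd44 and Ly6a fell. The summed epicardial markers lay at 376 to 388 CPM and 1235 to 1380 CPM, most of it Upk3b, and 4 of the 6 genes rose while Tbx18 and Aldh1a2 fell. The summed smooth muscle and pericyte markers lay at 985 to 1046 CPM and 491 to 550.0 CPM, most of it Acta2, with 3 of 5 tested genes lower and Myh11 higher. The 8 mitosis genes summed to 741 to 773 CPM and 190.2 to 199 CPM, and all 8 fell. Cardiomyocyte markers summed to 12.99 to 16.1 CPM and 59.3 to 62.8 CPM, mostly Tnnt2, which rose from 13.1 to 58.2 CPM, and 7 of their 9 genes, Myh6 and Myh7 among them, were too low to be tested. Endothelial markers summed to 1.60 to 1.89 CPM and 1.21 to 2.31 CPM. Leukocyte markers summed to 25.8 to 28.4 CPM and 24.8 to 27.4 CPM, with 6 of the 10 genes, Ptprc among them, at 0 reads in all libraries, while Csf1r fell from 22.6 to 10.9 CPM and Lyz2 rose from 3.76 to 14.6 CPM. In bulk RNA a change in the number of cells of one kind and a change in RNA per cell cannot be told apart, and the part of these shifts in the results that follow was not tested.

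Most of the axis was higher in the induced cells. Of the 10 genes, 8 rose and 1 fell at an adjusted p under 0.05 (edgeR quasi-likelihood test, Benjamini-Hochberg over all genes). That share stands beside a wide response, since 64.8% of all tested genes passed the same test, 32.6% higher and 32.2% lower. A change of at least 2-fold was rarer, at 17.1% of all tested genes (9.29% higher and 7.83% lower), and was seen in 5 of the 10 axis genes, Igfbp2, Igfbp4, Igfbp5, Igfbp6 and Pappa, all higher. The median log2 fold change was 1.05 over the axis and -0.01 over all tested genes. Since the 10 genes were chosen with earlier results of these data known, their contrast with all genes is a description. The control and induced libraries did not overlap for 9 of the 10 genes, against 68.6% of all tested genes. The 10 log2 changes ranged from -0.65 to 6.43, and the plot of levels by library shows that the wide gaps belonged to Igfbp5, Pappa, Igfbp2 and Igfbp6.

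**Figure D1:**
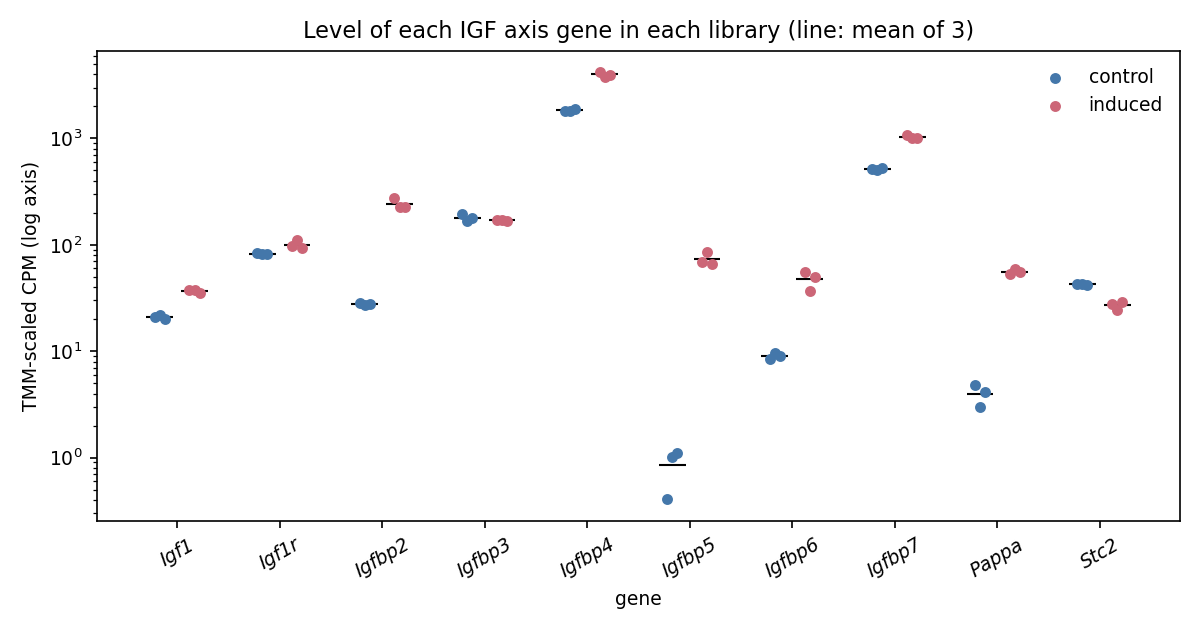
Level of each of the 10 genes in the 3 control and 3 induced libraries, in CPM after TMM scaling on a log axis, with points for libraries and lines for group means. Igfbp5 lay at or under 1.10 CPM in the control libraries and at 66.3 CPM or more in the induced ones, whereas the Igfbp3 points of both groups overlap.

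The ligand rose. Igf1 (ENSMUSG00000020053, chr10:87858265-87937042, plus strand, mm10) measured 21.1, 22.1 and 20.2 CPM in control libraries 1 to 3 and 37.6, 37.6 and 35.2 CPM in induced libraries 1 to 3. The groups did not overlap, and each was tight. The means were 21.1 ± 0.914 and 36.8 ± 1.35 CPM (SD, n = 3 each), a 1.74-fold increase with a log2 fold change of 0.80 (SE 0.07, 95% interval 0.65 to 0.95, edgeR adjusted p = 1.03e-08). Its values rest on 1254 reads over the control libraries and 2093 over the induced ones.

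The receptor gene moved less. Igf1r (ENSMUSG00000005533, chr7:67952827-68233668, plus strand) was measured at 83.8, 82.0 and 82.6 CPM in the control libraries and 98.1, 111 and 93.3 CPM in the induced libraries. Every induced library was above every control library, with induced library 2 the highest. The log2 fold change was 0.28 (SE 0.06, 95% interval 0.15 to 0.41), a 1.22-fold increase with an edgeR adjusted p of 0.000541, and it was the smallest of the 9 changes that passed.

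The 6 binding protein genes did not move as a block. Of these, 5 rose, 4 by at least 2-fold, none fell, and the median log2 fold change over the 6 was 1.76. Of all tested genes, 32.6% rose, 9.29% by at least 2-fold, and 32.2% fell. Igfbp5 and Igfbp2, which lie next to each other on chromosome 1, and Igfbp6 showed the steepest rises, Igfbp4 and Igfbp7 rose from already high levels, and Igfbp3 did not pass.

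Igfbp5 encodes a binding protein that attaches to extracellular matrix. In the control libraries the gene (ENSMUSG00000026185, chr1:72857932-72874884, minus strand) had 8, 20 and 22 reads, against 1298, 1611 and 1265 reads in the induced ones. On the CPM scale these were 0.405, 1.02 and 1.10, and 69.0, 84.7 and 66.3. It thus rested on few reads in all control libraries and was readily counted in all induced ones, and control library 1 was the lowest. The means of 0.842 ± 0.381 and 73.3 ± 9.96 CPM gave an 86.4-fold rise, with a log2 fold change of 6.43 (SE 0.16, 95% interval 6.09 to 6.77, edgeR adjusted p = 3.38e-16). Of the tested genes 72 had a higher log2 fold change. On the log2(FPKM + 1) scale with limma, which compresses low levels, the change was 3.53.

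Igfbp2, the product of which circulates and is expressed in many growing tissues, was already present in the control cells. The gene (ENSMUSG00000039323, chr1:72824503-72852474, plus strand) was counted at 28.3, 27.4 and 27.7 CPM in the control libraries and 274, 226 and 225 CPM in the induced libraries. The control libraries barely differed, whereas induced library 1 stood above the other induced libraries. From 27.8 ± 0.466 to 242 ± 28.2 CPM the gene rose 8.70-fold, with a log2 fold change of 3.12 (SE 0.07, 95% interval 2.96 to 3.28, edgeR adjusted p = 1.57e-16). Igfbp2 and Igfbp5 end 5457 bases apart and are transcribed towards each other. The nearest tested genes on the outer sides were Rpl37a, a ribosomal protein gene 110689 bases from Igfbp2 with a log2 fold change of -0.51, and Tns1, which encodes the adhesion protein tensin 1, 1035346 bases from Igfbp5 with a log2 fold change of 1.06.

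Igfbp6 encodes the binding protein known for its preference for the second ligand, Igf2. Its gene (ENSMUSG00000023046, chr15:102144362-102149511, plus strand) gave 8.41, 9.58 and 9.07 CPM in the control libraries and 55.4, 36.9 and 50.3 CPM in the induced libraries. Induced library 2 was clearly the lowest of its group yet far above the controls. The means were 9.02 ± 0.586 and 47.5 ± 9.58 CPM, a 5.27-fold rise with a log2 fold change of 2.40 (SE 0.12, 95% interval 2.13 to 2.66, edgeR adjusted p = 6.54e-12), and 2.56 when induced library 2 was left out. The tested genes of chromosome 15 had a median log2 fold change of -0.24, and Igfbp6 lay 2.63 above it.

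Igfbp4 and Igfbp7 were the abundant members. Igfbp4 (ENSMUSG00000017493, chr11:99041244-99054392, plus strand), whose product is the classical substrate of the Pappa protease, measured 1822, 1829 and 1879 CPM in the control libraries and 4204, 3800.3 and 3989.6 CPM in the induced ones. The increase was 2.17-fold, with a log2 fold change of 1.12 (SE 0.04, 95% interval 1.03 to 1.21, edgeR adjusted p = 6.77e-14). Igfbp7 (ENSMUSG00000036256, chr5:77349240-77408041, minus strand), which encodes a related secreted protein that binds IGFs weakly, measured 522, 511 and 525 CPM against 1071, 999 and 1009 CPM. For both genes the induced libraries lay well apart from the controls, with the spread within a group small. Igfbp7 rose 1.98-fold, with a log2 fold change of 0.98 (SE 0.04, 95% interval 0.89 to 1.08, edgeR adjusted p = 5.92e-13), just under the 2-fold line. Of its 1209 exon bases, 7.03% overlap Polr2b, an RNA polymerase II subunit gene on the opposite strand, and the strand setting of the counting is not given in the sources used here. Polr2b itself had a log2 fold change of -0.23.

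Igfbp3, which encodes the main IGF carrier of blood, was the one gene that did not pass. Its values (ENSMUSG00000020427, chr11:7206086-7213923, minus strand) were 194, 166 and 178 CPM in the control libraries and 170.2, 173 and 168 CPM in the induced ones. All induced libraries fell within the range of the controls. The log2 fold change was -0.07 (SE 0.06, edgeR adjusted p = 0.250), and its 95% interval of -0.19 to 0.04 lay below the intervals of the other 5 binding protein genes.

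**Figure D2:**
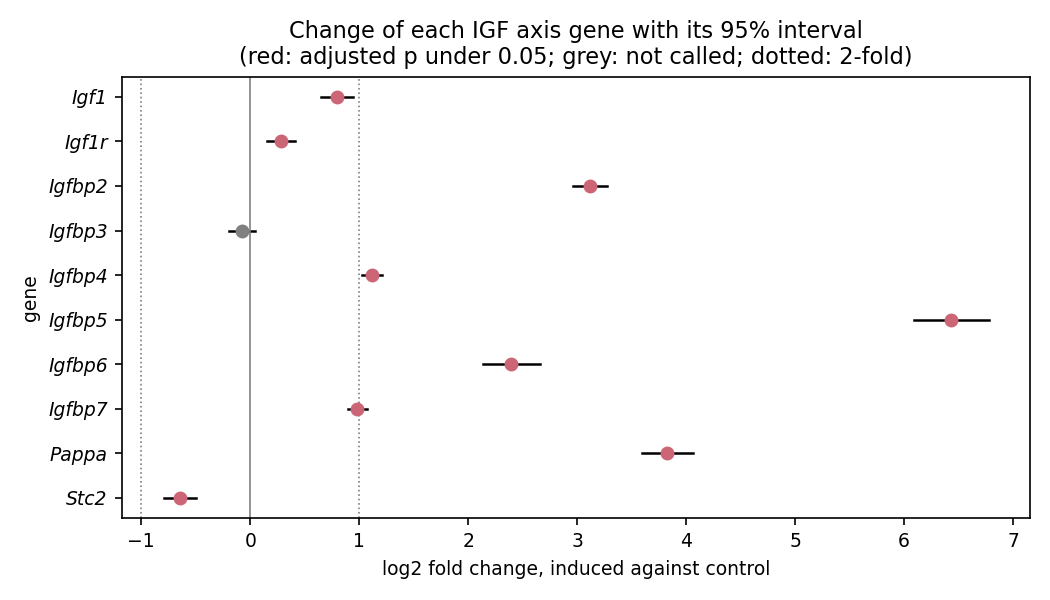
Log2 fold change of each gene, induced against control, with its 95% interval from edgeR, in red where the adjusted p was under 0.05 and in grey where it was not, and dotted lines at 2-fold. The 5 genes past 2-fold lie beyond the upper dotted line, from 1.12 for Igfbp4 to 6.43 for Igfbp5, and only Stc2, at -0.65, lies below 0 in red.

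The protease gene and the gene of its inhibitor went in opposite directions. Pappa (ENSMUSG00000028370, chr4:65124174-65357509, plus strand) had 94, 58 and 82 reads in the control libraries and 990, 1136 and 1066 reads in the induced ones, which is 4.76, 2.96 and 4.11 CPM against 52.6, 59.8 and 55.9 CPM. It was low in each control library, most of all in control library 2, and more than 10 times higher in each induced library. The means of 3.94 ± 0.915 and 56.1 ± 3.57 CPM gave a 14.2-fold rise, with a log2 fold change of 3.83 (SE 0.11, 95% interval 3.60 to 4.06, edgeR adjusted p = 1.68e-15), and 2.17 with limma on log2(FPKM + 1). Stc2 (ENSMUSG00000020303, chr11:31357307-31370074, minus strand) measured 42.9, 43.2 and 41.5 CPM in the control libraries and 27.7, 24.5 and 29.3 CPM in the induced ones, with no overlap. It fell to 0.638 times the control level, with a log2 fold change of -0.65 (SE 0.07, 95% interval -0.80 to -0.50, edgeR adjusted p = 2.13e-07).

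Levels of different genes were compared on the deposited FPKM scale, which divides by gene length. In the control cells Igfbp7 (425.3 ± 7.13 FPKM) and Igfbp4 (413.5 ± 7.64 FPKM) led the axis and were not separated, as their ranges over the libraries overlapped. Igfbp3 at 56.8 ± 4.50 FPKM and Igfbp2 at 14.9 ± 0.263 FPKM followed. Then came Stc2 and Igfbp6, which were not separated at 8.15 ± 0.157 and 8.03 ± 0.513 FPKM, then Igf1r at 4.88 ± 0.0581, Igf1 at 2.11 ± 0.0869, Pappa at 0.354 ± 0.0826 and Igfbp5 at 0.139 ± 0.0628 FPKM. The binding protein transcripts thus spanned the whole range of the axis in the control cells, from its top to its lowest gene.

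In the induced cells Igfbp4 (903.9 ± 46.9 FPKM) and Igfbp7 (847.9 ± 33.1 FPKM) were again at the top and again not separated, above 99.8% of the tested genes each. Igfbp2, at 130.6 ± 15.3 FPKM, had passed Igfbp3, at 54.3 ± 0.606 FPKM. Igfbp6 at 42.7 ± 8.66 FPKM and Igfbp5 at 12.2 ± 1.64 FPKM came next, so that all 6 binding protein genes stood above the other 4 genes. Igf1r at 5.99 ± 0.527, Stc2 at 5.24 ± 0.484 and Pappa at 5.08 ± 0.316 FPKM overlapped from one to the next, and Igf1 at 3.71 ± 0.134 FPKM was the lowest. Igfbp5 moved from above 4.06% of the tested genes in the control cells to above 71.2% in the induced cells, and Pappa from above 9.74% to above 49.8%.

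The summed FPKM of the 6 binding protein genes rose from 918.7 ± 15.2 in the control libraries to 1992 ± 99.98 in the induced ones, and its make-up shifted. Igfbp2 was 1.65, 1.62 and 1.59% of the sum in the control libraries and 7.06, 6.39 and 6.19% in the induced ones. Igfbp3 went the other way, with 6.68, 5.82 and 6.04% against 2.59, 2.88 and 2.73%, so a gene whose own level did not pass the test lost share. Igfbp6 rose from 0.875 ± 0.0650% to 2.13 ± 0.347% and Igfbp5 from 0.0151 ± 0.00682% to 0.615 ± 0.107%, while Igfbp7 went from 46.3 ± 0.130% to 42.6 ± 0.575%. For these 5 genes the groups did not overlap. Igfbp4 had shares of 45.0 ± 0.528% and 45.4 ± 0.427%, with overlapping groups. Igfbp4 and Igfbp7 together still made up 91.3 ± 0.401% and 88.0 ± 0.465%. These shares are of transcripts per length and do not measure protein.

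The summed binding protein transcripts, mostly those of Igfbp4 and Igfbp7, rose more than the Igf1 transcript taken alone. The ratio of the summed FPKM to that of Igf1 was 435.5, 409.9 and 459.9 in the control libraries and 554.2, 504.1 and 554.1 in the induced ones, without overlap, a difference of 0.30 on the log2 scale. With the second ligand gene, Igf2, added to Igf1, a choice made after seeing the data, the difference was 0.0032 and the groups overlapped. The ratio of Pappa to Stc2 FPKM was 0.0521, 0.0321 and 0.0464 in the control libraries and 0.890, 1.15 and 0.895 in the induced ones. Per length, the Pappa transcript was thus a small fraction of the Stc2 transcript in every control library and near equal to it in every induced library. The mean log2 ratios of FPKM were -4.55 and -0.04. Not divided by gene length, the ratio was 0.111, 0.0684 and 0.0989 in the control libraries and 1.90, 2.44 and 1.91 in the induced ones. Stc1, a further inhibitor gene described below, is not part of this ratio. It measured 281 CPM in the control and 93.5 CPM in the induced libraries, not divided by gene length.

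**Figure D3:**
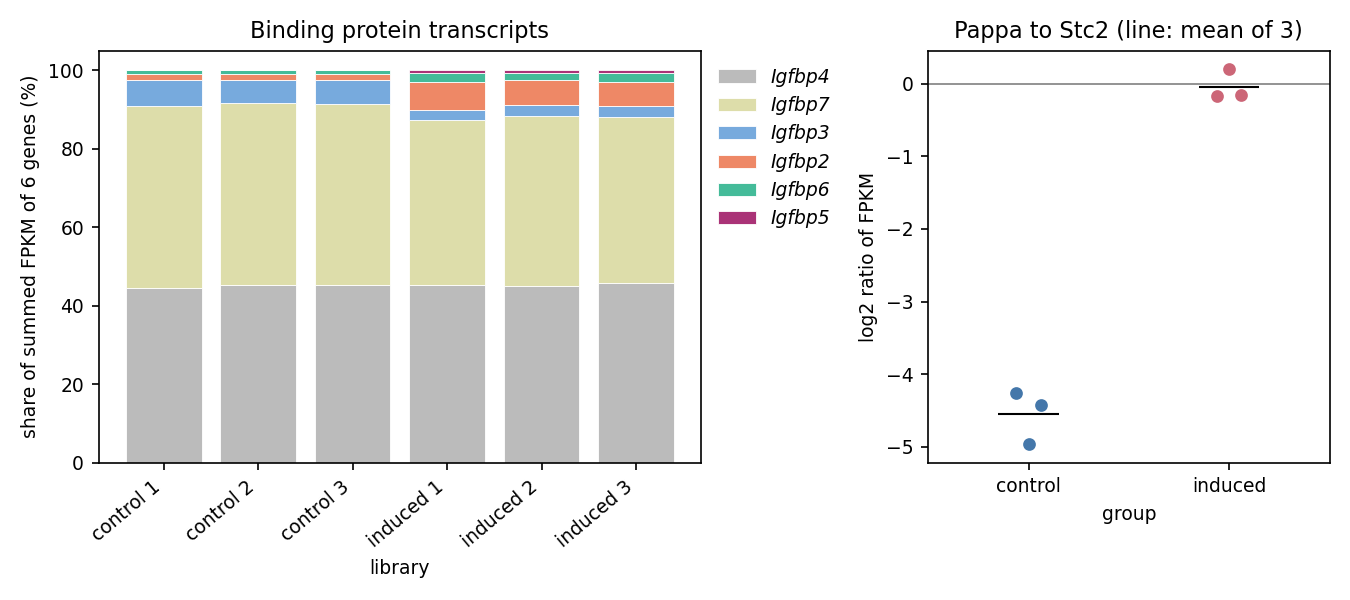
Left, share of each binding protein gene in the summed FPKM of the 6 genes, in percent, with 1 bar for each library. Right, log2 ratio of Pappa to Stc2 FPKM, with points for libraries and lines for the means of -4.55 in the control and -0.04 in the induced group. Igfbp4 and Igfbp7 fill most of each bar, and the Igfbp2 segment is wider in all induced bars.

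Because 5-azacytidine acts at the CG dinucleotides where mammalian DNA is methylated, the promoter sequences of the binding protein genes are shown. The 4 windows are the 250 bases before the transcript start in RefSeq (GRCm38.p6), 5′ to 3′ on the strand of the gene, with each CG in capitals. They were picked as the 3 binding protein genes with the largest rise and the 1 that did not pass, Igfbp3. They lie at chr1:72874866-72875115 (minus strand) for Igfbp5, chr1:72824230-72824479 (plus strand) for Igfbp2, chr15:102143936-102144185 (plus strand) for Igfbp6 and chr11:7213924-7214173 (minus strand) for Igfbp3.
Igfbp5: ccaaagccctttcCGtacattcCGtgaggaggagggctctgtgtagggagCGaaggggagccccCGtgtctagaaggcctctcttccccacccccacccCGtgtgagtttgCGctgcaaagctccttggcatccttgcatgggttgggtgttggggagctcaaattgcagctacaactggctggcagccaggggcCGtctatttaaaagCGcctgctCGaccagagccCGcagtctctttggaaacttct
Igfbp2: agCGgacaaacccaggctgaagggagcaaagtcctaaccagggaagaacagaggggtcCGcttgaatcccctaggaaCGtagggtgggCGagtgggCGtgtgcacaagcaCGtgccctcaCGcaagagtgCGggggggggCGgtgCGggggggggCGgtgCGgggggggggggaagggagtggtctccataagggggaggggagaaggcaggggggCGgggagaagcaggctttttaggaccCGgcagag
Igfbp6: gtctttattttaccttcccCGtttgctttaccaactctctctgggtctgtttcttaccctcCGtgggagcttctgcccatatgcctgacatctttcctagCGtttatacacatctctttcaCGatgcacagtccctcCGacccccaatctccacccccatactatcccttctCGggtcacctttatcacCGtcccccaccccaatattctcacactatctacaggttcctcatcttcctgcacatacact
Igfbp3: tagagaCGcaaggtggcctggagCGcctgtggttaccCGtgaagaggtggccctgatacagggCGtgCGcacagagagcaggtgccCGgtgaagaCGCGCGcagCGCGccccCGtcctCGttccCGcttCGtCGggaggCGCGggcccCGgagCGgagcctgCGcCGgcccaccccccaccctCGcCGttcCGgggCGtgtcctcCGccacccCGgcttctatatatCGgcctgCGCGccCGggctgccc
The Igfbp3 window held 32 CG, against 10 for Igfbp5, 14 for Igfbp2 and 7 for Igfbp6, and the windows of Igfbp7 and Igfbp4, which are not shown and whose genes both rose, held 26 and 22. Since the 4 windows were picked by how their genes changed, the contrast between them is a description.

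Over the full RefSeq window, which runs 50 bases past the start, the ratio of observed to expected CG was 0.420 for Igfbp5, 0.614 for Igfbp6, 0.645 for Igfbp2, 0.724 for Igfbp4, 0.832 for Igfbp7 and 0.961 for Igfbp3. The median over the 32851 windows of the reference table was 0.384, and 35.8% of them had a ratio of 0.6 or more. Tested genes had higher ratios, with 7504 of the 10321 that have a window at 0.6 or more. Igf1 had a ratio of 0.307 at a RefSeq start 2846 bases inside the counted gene, Stc2 of 0.897 and Igf1r of 1.11, the last above 98.2% of all windows, and no window was held for Pappa. The RefSeq starts of Igfbp6 and Igf1r lay at -176 and -570 bases from the start of the counted gene (minus for upstream). Igfbp2 has a further RefSeq start with a ratio of 0.647. Across the 6 binding protein genes the log2 fold change tended to be larger where the full-window ratio was lower, with a Spearman correlation of -0.94. Over the 9 genes with a window it was -0.67. The order depended on the window, since in the 150 bases nearest the start Igfbp4, at 0.588, lay below Igfbp2, at 0.625. These are descriptions of a few genes, all measured in the same libraries. Over the 10321 tested genes with a window the correlation was only -0.07, and 17.8% of the 2817 genes with a ratio under 0.6 rose at least 2-fold against 5.41% of the 7504 others. Methylation was not measured.

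The other ligand and receptor genes gave 3 that could be tested out of 6, of which 2 rose and none fell. The counts of this and the following lists stand beside 32.6% of all tested genes higher and 32.2% lower. Igf2, the second ligand, measured 18.2, 18.5 and 18.5 CPM in the control libraries and 37.3, 51.0 and 45.6 CPM in the induced ones, a log2 fold change of 1.28 (SE 0.09, edgeR adjusted p = 8.89e-10). Its groups lay far apart, with induced library 1 the lowest of its group. The insulin receptor gene Insr had a log2 fold change of 0.21 (adjusted p = 0.0102), and Igf2r, which encodes the receptor that clears Igf2, one of -0.05 (adjusted p = 0.345). Ins1, Ins2 and Insrr had 0 reads in every library.

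Among other proteins that carry an IGFBP domain or join the IGF complex, 8 of 11 genes were tested, 6 rose and 2, Ccn3 and Esm1, fell. All 8 thus passed, beside 64.8% of all tested genes, and their median log2 fold change was 0.57. Ccn2, the gene of connective tissue growth factor, went from 157 ± 3.16 to 476 ± 19.4 CPM, a log2 fold change of 1.60 (edgeR adjusted p = 2.47e-15), and Ccn5 changed by 1.06 (adjusted p = 1.57e-11). Igfals, which encodes the acid-labile subunit that joins IGF and its carrier in blood, was picked after its values were seen, with 6 reads over the control libraries and 170 over the induced ones. Igfbp1 had 0 reads in every library.

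Of the other proteases of binding proteins and their inhibitors, 13 of 14 genes were tested, 7 rose and 4 fell, with a median log2 fold change of 0.28. Stc1, the paralog of Stc2 and likewise known as an inhibitor of the Pappa protease, fell from 281 ± 4.73 to 93.5 ± 1.26 CPM, a log2 fold change of -1.59 (edgeR adjusted p = 2.47e-15). Both stanniocalcin genes were thus lower in all induced libraries. Ctsd, which encodes the lysosomal protease cathepsin D, rose by 1.21 on the log2 scale (adjusted p = 1.63e-14). Pappa2, the paralog of Pappa, was named after its values were seen and did not pass, with 1.11 and 1.35 CPM (adjusted p = 0.406). The 3 genes of Igf2 mRNA-binding proteins all fell, with a median log2 fold change of -1.04, the value of Igf2bp2 (adjusted p = 1.61e-12) and a change of -1.14 for Igf2bp1 (adjusted p = 2.73e-10).

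Of the adaptor and PI3K-AKT-mTOR genes, 25 of 26 were tested, 13 rose and 5 fell, with a median log2 fold change of 0.17. Pik3cb, a catalytic PI3-kinase subunit, went from 12.9 ± 1.30 to 39.6 ± 2.19 CPM, a log2 fold change of 1.62 (edgeR adjusted p = 6.43e-12). In the MAPK arm 4 of 14 genes rose and 2 fell, with a median log2 fold change of 0.07, led by the kinase gene Braf at 0.94 (adjusted p = 9.61e-09), with the GTPase gene Nras at -0.35 (adjusted p = 0.000166). AKT signalling restrains the FoxO proteins. Of the 18 genes of FoxO factors and their targets, 10 rose and 5 fell, with a median of 0.26. Pdk4, a kinase that limits glucose oxidation, went from 7.99 ± 0.413 to 25.6 ± 1.98 CPM, a log2 fold change of 1.68 (adjusted p = 2.10e-11), and the factor Foxo1 rose by 1.27 (adjusted p = 1.38e-09). Over all 7 lists, 63 of 84 tested genes passed, 42 higher and 21 lower, beside 64.8% of all tested genes (32.6% higher and 32.2% lower). The median over the 84 genes was 0.17. The FoxO list holds transcripts only and does not measure AKT activity.

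**Figure D4:**
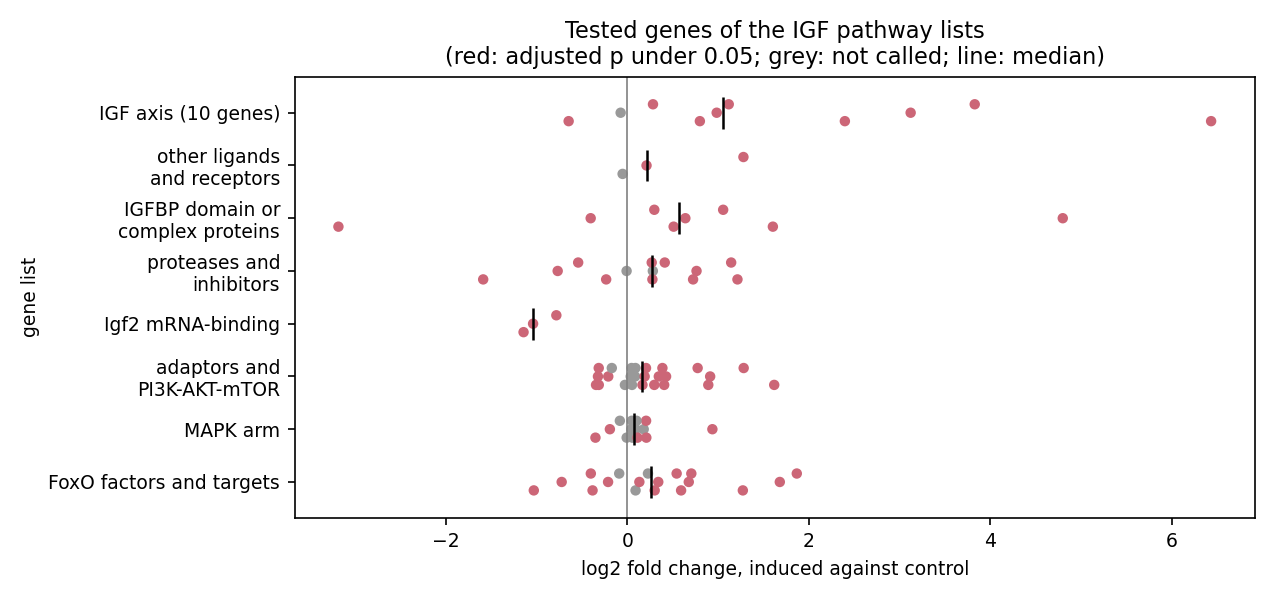
Log2 fold change of each tested gene, induced against control, for the IGF axis and the 7 other gene lists, in red where the edgeR adjusted p was under 0.05, with a line at the median of each list. The medians run from -1.04 for the Igf2 mRNA-binding list to 1.05 for the IGF axis.

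The genes whose profile over the 6 libraries was closest to that of Igfbp5 were Arhgef26, which encodes a guanine nucleotide exchange factor, Scg2, which encodes the secretory granule protein secretogranin II, and Tnfrsf26, a receptor gene. Their Euclidean distances on the centred log2 CPM scale, which adds a prior count, were 0.686, 0.896 and 1.02. Scg2 went from 0.894 to 75.9 CPM, close in level to Igfbp5. Arhgef26 went from 0.0677 to 11.6 CPM and Tnfrsf26 from 0.202 to 15.2 CPM. Both were near the detection limit in the control libraries, where the prior count compresses differences. Among the genes closest to Stc2 were Rpl13 and Eef1d, at distances of 0.0724 and 0.0750, both genes of the translation machinery, with log2 fold changes of -0.66 and -0.65.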

How the data were processed

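The submitters aligned RNA-seq reads of 6 libraries to mm10, and their processing notes name HISAT2 2.0.5, featureCounts 1.5.0-p3 and DESeq2 1.16.1, with no strand setting. The authors deposited raw read counts per gene and FPKM values, which divide those counts by depth and gene length. Their own fold changes, p-values and Gene Ontology tables were not used.

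Counts were tested with edgeR 4.0.16 in R 4.3.3 (TMM scaling, filterByExpr with a minimum count of 10, quasi-likelihood, two-sided, Benjamini-Hochberg over 14246 genes, threshold 0.05), with a biological coefficient of variation of 5.82%. CPM values are TMM-scaled. limma 3.58.1 and DESeq2 1.42.0 served as alternatives. The main edgeR fit and the DESeq2 fit were tested on simulated data, and the limma fits were not. The simulated data had far fewer changed genes than these libraries and the same spread for all genes. No pair of replicate libraries agreed within counting error. Intervals cover 95%, and limits for 0 reads assume 3 counts and cover counting error only.

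The 10 genes and all lists were chosen with earlier results of these data known. The rule for naming further genes took the 2 genes of each list with the smallest p, all other ligand and receptor genes, and the 3 genes with the nearest profile to the largest rise and fall, except that 2 genes this rule picks are not reported here. Ccn3, Esm1, Igfals, Pappa2, the marker genes and the genes neighbouring or overlapping one of the 10 were named outside the rule, after their values were seen. A comparison of the protein sequences was not run.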

Additional observations from a re-analysis of the deposited data

How the results depend on the processing

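All 140 values of the 10 genes, over 14 alternatives each, kept their direction and call, and 9 genes passed in every setting. At 2-fold or more 5 passed, or 6 without induced library 2 or 3, where Igfbp7 reached 1.01 without library 2. Leaving out 1 library at a time gave 8514 to 9348 changed genes and 2533 to 2567 at 2-fold. The log2 fold change of Igfbp5 was 3.53 and that of Pappa 2.17 under limma on log2(FPKM + 1), a scale that compresses low levels, where 1032 genes changed 2-fold against 2438. Under both limma settings 1 other ligand or receptor gene passed instead of 2. With shares not divided by gene length, the share differences, induced minus control, were 3.26 percentage points for Igfbp2, -3.88 for Igfbp3, 1.29 for Igfbp5, 0.502 for Igfbp6 and -1.64 for Igfbp7, against 4.93, -3.44, 0.5997, 1.26 and -3.71. Chosen after seeing the data, the log2 difference in the ratio to Igf1 was 0.40 without Igfbp7 and 0.0032 with Igf2 added. Under library totals the chromosome 10 and 11 medians turned to -0.0243 and -0.00672. In 150-base windows the CG ratio was 0.767 for Stc2 and 0.588 for Igfbp4, which then lay below Igfbp2 at 0.625. With the replicate number as a block 9063 genes and 9 axis genes passed, but same-numbered libraries did not deviate together (correlations -0.00, -0.02 and 0.03), so the numbers give no pairing. Precision is limited by 3 libraries a group, and for Igfbp5 and Pappa by few control reads.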
